A study of Mus musculus with 6 samples.

Results

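The regions described are 3376 peaks of open chromatin that lay between genes and were listed in the posterior second heart field (pSHF) but not in the atria (HT) of mouse embryos. They were chosen by the deposited peak lists themselves. A peak was a member if it overlapped no HT peak by 1 bp or more, if its summit lay outside every annotated gene body and over 1 kb from any gene end, and if a protein-coding gene body lay within 100 kb. The members were 22.3% (95% interval 21.6 to 23.0) of the 15132 pSHF-restricted peaks, of 44018 pSHF peaks and of 93285 peaks in both lists. Of the other pSHF-restricted peaks, 7349 lay inside genes, 2652 at gene ends and 1755 farther than 100 kb from a protein-coding gene.

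The assay was ATAC-seq, which reads accessible DNA from where Tn5 transposase can insert adapters, and the study's stated subject is how Hedgehog signals time differentiation. Both groups were wild-type (WT) embryos of the outbred strain CD1 at embryonic day 10 (E10.0), with pieces of each tissue microdissected and pooled. There were 3 pSHF samples and 3 HT samples, and 1 deposited peak list per tissue, with 44018 pSHF peaks and 49267 HT peaks on 20 chromosomes. No value per sample was at hand, so no spread between samples, no test and no p-value is given, and every interval covers counting error over peaks only.

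The pSHF is the progenitor mesoderm behind the heart tube that adds cells to the venous pole, where the atria form, and Hedgehog ligand from the foregut endoderm signals to it. Accessible sites between genes often include enhancers, which bind transcription factors and can act on a gene over long distances, so the gene a peak is assigned to gives its position and is not a stated target. A restricted peak is one the other list lacks at the authors' threshold, which does not make it closed there, since the files used here give no HT signal at the members. In dissected tissue, fewer cells of a type with an open site and less accessibility per cell cannot be told apart.

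The sequences just before the start sites of Gas1, Errfi1, Pkdcc and Nr5a2 are shown first. The first 3 had the most members, and Nr5a2 the highest summed fold enrichment of the genes with 5. They are shown because they set the distant members beside the state of the gene's own promoter. Each run is the 250 bases before the start site, 5′ to 3′ on the gene's strand, from RefSeq in build GRCm38.p6 (mm10 coordinates). Capitals mark matches on either strand to 4 motifs, namely that of GLI factors (GACCACCC), of GATA factors (AGATAA), of MEIS or TGIF factors (TGACAG) and of KLF or SP factors (GGGCGGG), and no base belonged to 2 matches. The Gas1 run lies on the minus strand at chr13:60177536-60177785, Errfi1 on the plus strand at chr4:150854820-150855069, Pkdcc on the plus strand at chr17:83215033-83215282 and Nr5a2 on the minus strand at chr1:136960449-136960698.
Gas1: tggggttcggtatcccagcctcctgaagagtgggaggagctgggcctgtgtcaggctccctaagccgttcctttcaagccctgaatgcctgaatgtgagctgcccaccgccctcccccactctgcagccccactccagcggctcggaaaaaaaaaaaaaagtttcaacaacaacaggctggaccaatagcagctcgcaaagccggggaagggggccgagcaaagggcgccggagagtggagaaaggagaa
Errfi1: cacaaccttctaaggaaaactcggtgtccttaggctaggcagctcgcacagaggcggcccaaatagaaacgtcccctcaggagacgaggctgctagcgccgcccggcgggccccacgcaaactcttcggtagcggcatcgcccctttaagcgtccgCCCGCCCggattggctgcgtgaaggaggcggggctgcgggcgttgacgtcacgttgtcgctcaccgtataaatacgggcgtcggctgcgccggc
Pkdcc: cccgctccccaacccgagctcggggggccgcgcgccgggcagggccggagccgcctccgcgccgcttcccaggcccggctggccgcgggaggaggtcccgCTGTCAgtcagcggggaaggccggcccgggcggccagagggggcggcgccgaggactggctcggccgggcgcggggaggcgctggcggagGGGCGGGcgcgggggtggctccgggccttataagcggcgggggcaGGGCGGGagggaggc
Nr5a2: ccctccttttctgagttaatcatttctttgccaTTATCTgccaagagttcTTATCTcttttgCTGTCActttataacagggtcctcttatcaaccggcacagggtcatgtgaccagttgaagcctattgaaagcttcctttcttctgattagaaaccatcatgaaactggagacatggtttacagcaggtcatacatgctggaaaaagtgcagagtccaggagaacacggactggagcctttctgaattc

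The Gas1 run held none of the 4 motifs, that of Errfi1 1 KLF or SP match, that of Pkdcc 2 KLF or SP matches and 1 MEIS match, and that of Nr5a2 2 GATA matches and 1 MEIS match. Among 32817 such promoter windows, 23.4% held GGGCGGG, 15.9% TGACAG, 9.99% AGATAA and 0.704% GACCACCC. The G and C share was 58.8% at Gas1, 64.8% at Errfi1, 83.2% at Pkdcc and 43.2% at Nr5a2, beside a median of 52.4% over all windows. The first 3 runs were open in both tissues. At Gas1 a pSHF peak of fold enrichment 5.86 and an HT peak of 7.10 covered the start site, at Errfi1 6.92 in pSHF and 13.7 in HT, and at Pkdcc 5.39 in pSHF and 4.71 in HT. At Nr5a2 neither list had a peak over the run, nor over that of its second listed start site. Errfi1 also has an earlier listed start site, over which neither list had a peak.

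Members were narrow peaks of modest strength. Fold enrichment, the authors' ratio of summit signal to the peak caller's background, had a median of 4.31 over the members (quartiles 3.77 and 4.85), against 4.93 over 5036 HT-restricted intergenic peaks near genes (4.17 and 6.03) and 4.93 over 3707 pSHF intergenic peaks that HT shared (4.30 and 6.06). The members ran from 2.58 to 10.6, while the highest HT-restricted value was 19.02 and the highest shared value 17.1. The members were selected on these lists, so these values are a description. Median width was 164 bp for members, 170 bp for HT-restricted peaks and 257 bp for shared peaks. A single summit was listed in 96.9% of members, 97.7% of HT-restricted peaks and 82.0% of shared peaks. Members 1 to 10 kb from a gene body had a median fold of 4.30 and a median width of 159 bp, and 13.7% had a −log10 q-value of 5 or more. At 50 to 100 kb the median fold was 4.31 and the median width 172 bp, and 17.8% reached that q-value, with 14.3% at 10 to 25 kb and 15.3% at 25 to 50 kb.

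Few reads stood behind each member. The summit pileup, the number of overlapping fragments recovered from the authors' fold enrichment and −log10 p-value, had a median of 8 in members, for which counting error alone gives a 95% Poisson interval of 3.45 to 15.8. It was 9 in HT-restricted peaks and 10 in shared peaks, and the lowest in all pSHF and HT peaks was 5. A pileup of 10 or less was found in 81.6% of members, 64.7% of HT-restricted and 53.1% of shared peaks, and one of 20 or more in 14 members (0.415%), 348 HT-restricted (6.91%) and 351 shared peaks (9.47%). A −log10 q-value of 5 or more was reached by 513 members (15.2%, 14.0 to 16.4), 2110 HT-restricted peaks (41.9%) and 1637 shared peaks (44.2%). The strongest member ranked 1483rd among all pSHF peaks by fold enrichment.

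**Figure D1:**
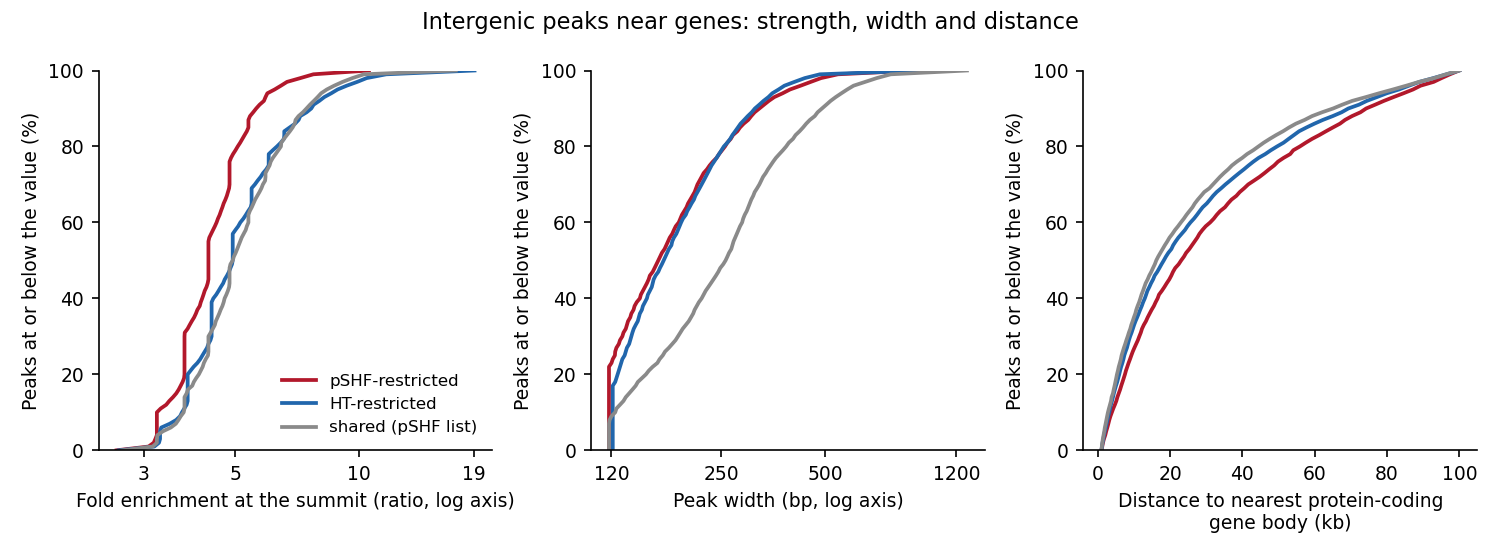
Cumulative share of intergenic peaks near genes (y axis, %) at or below a given fold enrichment at the summit (ratio, log axis), width (bp, log axis) and distance to the nearest protein-coding gene body (kb), for 3376 pSHF-restricted, 5036 HT-restricted and 3707 shared peaks. The pSHF-restricted curve lies at lower fold enrichment (median 4.31, against 4.93 and 4.93) and at larger distance (median 23.1 kb, against 18.3 and 16.2 kb), and its steps are whole-number pileups at 1 background level.

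Whether a pSHF intergenic peak is a member turned on the HT list. Of 7083 pSHF intergenic peaks near genes, 47.7% (46.5 to 48.8) had no HT overlap and were therefore members. The same rule the other way left 58.3% (57.3 to 59.4) of 8632 HT intergenic peaks as HT-restricted. In 61 members an HT peak lay within 50 bp without overlap, with a median fold of 3.999, while 219 shared peaks overlapped HT by 1 to 50 bp and had a median of 4.31. At the border of 1 kb from gene ends, 31 members lay within 100 bp on the far side, and 32 restricted peaks within 100 bp on the near side were left out. At the outer border of 100 kb, 69 members lay within 5 kb inside it, and 51 restricted peaks within 5 kb beyond it were left out.

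The 10 strongest members were scattered over 9 chromosomes. The highest fold enrichment, 10.6 with a pileup of 22, was at chr9:27203098-27203641, 47.9 kb from Jam3, which encodes a junctional adhesion molecule. It was followed by 10.2 at chr2:129908883-129909473, nearest to the kinase gene Stk35, and by 10.0 at chr17:15343075-15343360, 24.1 kb downstream of Dll1, a Notch ligand gene of the early mesoderm. The next were nearest to Gm281 (9.96), Tas2r117 (9.14), the actin-binding gene Lmod2 (9.06), Utp14b (9.01), Thoc3 (8.88), the atypical cadherin gene Fat1 (8.72) and Rint1 (8.62). Of these 10, the member near Tas2r117 was 309 kb from the nearest HT peak and that near Lmod2 5.20 kb.

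Members lay farther from protein-coding genes than the like peaks. Their median distance to the gene body was 23.1 kb, against 18.3 kb for HT-restricted and 16.2 kb for shared peaks. The share within 10 kb was 26.9% of members (25.4 to 28.4), 32.9% of HT-restricted and 35.0% of shared peaks, and the share over 50 kb was 23.9%, 19.6% and 16.7% in the same order. Of the 2626 members whose gene had a listed strand, 49.9% (48.0 to 51.8) lay upstream, against 52.9% (51.3 to 54.4) of 3988 HT-restricted and 49.3% (47.5 to 51.1) of 2884 shared peaks. In 50.03% of members a noncoding gene or pseudogene body was nearer than the protein-coding one, against 47.0% of HT-restricted and 46.7% of shared peaks.

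Another member lay within 25 kb of 33.6% of members, while 40.2% of HT-restricted intergenic peaks had another of their kind within that distance. Any other pSHF peak lay within 25 kb of 71.3% of members, and an HT peak within 25 kb of 68.7%. The median gap to the nearest HT peak was 13.6 kb, and 284 members (8.41%) had an HT peak within 500 bp. Another member lay within 500 bp of 381 members (11.3%), while 324 HT-restricted intergenic peaks (6.43%) had another of their kind that close. Joined at gaps of up to 25 kb, the members formed 420 pairs and 88 runs of 3 or more, which held 295 members. Per Mb of the 655 Mb of intergenic sequence within 100 kb of a protein-coding gene there were 5.15 members, 7.68 HT-restricted peaks and 5.66 shared peaks. Among chromosomes the members made up 32.5% (chromosome 3) to 45.3% (chromosome 12) of restricted intergenic peaks near genes.

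At gene level, 2468 of 21627 protein-coding genes had at least 1 member. Of these, 1059 also had an HT-restricted intergenic peak, 873 also had a shared one and 1012 had neither. Over the 4915 genes with a restricted intergenic peak, 33.7% had more members than HT-restricted peaks, 2744 had more HT-restricted peaks and 517 had equal numbers. A single member was found at 1811 genes and 2 at 478. The 179 genes with 3 or more held 609 members, and 64 of them had no HT-restricted intergenic peak. For HT-restricted peaks the number of genes with 3 or more was 320.

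Members were mostly found at genes whose start site was open in both tissues. Of 1908 genes with a member and a listed promoter window (250 bases before the start site to 50 after it), 63.9% (61.7 to 66.1) had a peak there in both lists, 3.30% (2.55 to 4.21) in pSHF alone, 3.41% (2.64 to 4.32) in HT alone and 29.4% in neither. Among 1945 genes with HT-restricted intergenic peaks and no member, the shares were 66.2%, 3.39%, 3.45% and 26.9%. Over all 17273 genes with a window they were 55.6%, 2.28%, 2.89% and 39.2%. Genes with 3 or more members had a promoter peak in pSHF alone in 2 of 142 cases.

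Gas1 had more members than any other gene, with 10 members and no HT-restricted or shared peak in the intergenic space assigned to it. It encodes a membrane-anchored co-receptor that binds Hedgehog ligands. The space within 100 kb amounted to 129 kb, in which the mean density over the genome gives 0.665 members. Gas1 was named for its count, so this comparison is a description and not a test. For HT-restricted intergenic peaks the highest number at a gene was 9. Of the 10 Gas1 members, 8 lay upstream, between 16.1 and 78.5 kb from the gene, and 2 lay downstream, the farther at 27.3 kb. Upstream in order of distance, the fold enrichments were 3.77, 6.79, 3.99, 4.32, 4.85, 3.23, 3.48 and 7.59, and downstream 3.61 and 3.63. Upstream, members lay side by side at 48.9 and 49.2 kb, at 65.1 and 65.5 kb, and at 78.2 and 78.5 kb. The 2 downstream members, at chr13:60147059-60147207 and chr13:60147347-60147624, were also neighbours. Such neighbours were counted singly here and in the run below, so the counts are of listed peaks and not of separate sites. The highest and second highest, at chr13:60255974-60256185 and chr13:60226108-60226558, had pileups of 16 and 17 and the only −log10 q-values of 5 or more at the gene (10.4 and 9.54). The 7 members from chr13:60226108 to chr13:60256185 formed the longest run, 30.1 kb long, and the nearest HT peak to any of the 7 was 30.7 kb away.

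The wider Gas1 surroundings were not free of HT peaks. Within 200 kb of the start site, 4 HT-restricted peaks of fold 3.84 to 6.03 were nearest to Gas1, all over 100 kb away, as well as 6 further pSHF-restricted peaks (3.23 to 5.31) and 4 shared peaks (4.99 to 8.98), including the start site itself. The shared peaks of fold 8.98 and 6.49 lay 67.0 and 92.4 kb downstream of the start site, outside the intergenic space as defined.

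Errfi1, which encodes an inhibitor of the epidermal growth factor receptor, had 8 members and no HT-restricted or shared peak in its 82 kb of intergenic space. Of its members, 5 of 8 had a −log10 q-value of 5 or more. Going away from the gene upstream, the fold enrichments were 5.89 at 28.0 kb, 4.81 and 5.28 at 58.8 and 59.0 kb, 6.46 at 84.5 kb, and 5.33 and 5.98 at 94.7 and 95.2 kb. Downstream, a pair of 4.62 and 4.64 lay 2.87 and 3.19 kb from the gene end. A single HT-restricted peak (4.36) lay 45.3 kb upstream of the start site, outside the intergenic space as defined.

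Pkdcc, which encodes a secreted tyrosine kinase active in skeletal and mesenchymal development, had 6 members, 1 HT-restricted and 3 shared intergenic peaks. All 6 members lay upstream, 36.0 to 76.6 kb away, in a run of 40.8 kb with no HT-restricted or shared peak between them. Their fold enrichments were 4.90, 4.69, 5.17, 3.86, 4.60 and 4.22 in order of distance, those of 3.86 and 4.60 at 58.3 and 58.8 kb. Nr5a2, a nuclear receptor gene, had 5 members, at 20.2 and 36.8 kb upstream (5.85 and 4.85) and at 3.09, 60.2 and 73.5 kb downstream (4.85, 4.02 and 5.33), with no HT-restricted or shared intergenic peak. Eya4, which encodes a transcriptional cofactor and phosphatase, likewise had 5 members and none of the others, at folds of 3.77 to 4.49, and 3 of the 5 lay side by side 98.6 to 99.4 kb upstream.

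**Figure D2:**
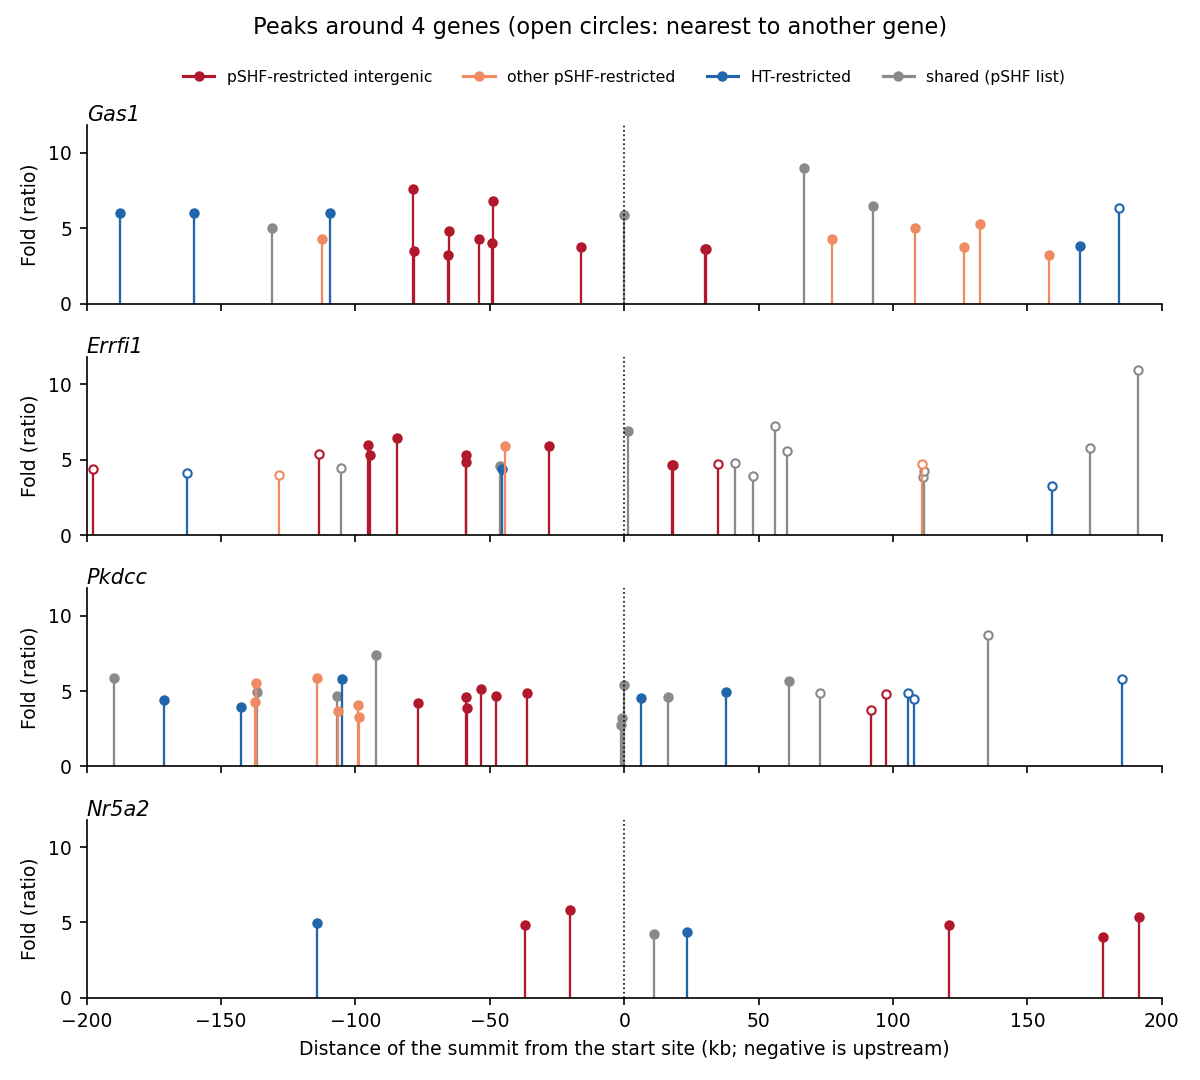
Fold enrichment (y axis, ratio) of every peak summit within 200 kb of the start site of Gas1, Errfi1, Pkdcc and Nr5a2 (x axis, kb, negative is upstream), for the pSHF-restricted intergenic peaks, other pSHF-restricted peaks, HT-restricted peaks and shared peaks. Open circles are nearest to another gene. The 8 upstream Gas1 members lie 16.1 to 78.5 kb away with no other kind of peak among them, and the 6 Pkdcc members do so at 36.0 to 76.6 kb.

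Of the genes that follow, 9 more had 5 members, and Rpl34-ps1 had the highest summed fold enrichment of the 35 genes with 4. The chemokine gene Cxcl13 had 5 members, 3 HT-restricted and 2 shared intergenic peaks, and the chemokine receptor gene Cxcr4 5, 2 and 3. The Bmp family ligand gene Gdf6 had 5, 1 and 3, the Notch effector Hes1 5, 1 and 1, and the growth factor gene Hgf 5, 1 and 1. Tbc1d1 had 5, 4 and 0, Zfp516 5, 3 and 4, Lclat1 5, 2 and 0, Stx16 5, 1 and 4, and Rpl34-ps1, listed as protein-coding in the gene table, 4, 1 and 0. Under a threshold of −log10 q of 5 in both lists, Cxcl13 had 1 more HT-restricted peak than members, while Gas1, Errfi1, Pkdcc, Nr5a2, Hes1 and Eya4 did not turn under any alternative tried. The difference was lost at 2 of them when restricted peaks needed a −log10 q-value of at least 5, where Eya4 had 0 members and 0 HT-restricted peaks and Hes1 1 and 1. At the same threshold the excess of members fell to 2 at Gas1, 5 at Errfi1, 1 at Pkdcc and 2 at Nr5a2.

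**Figure D3:**
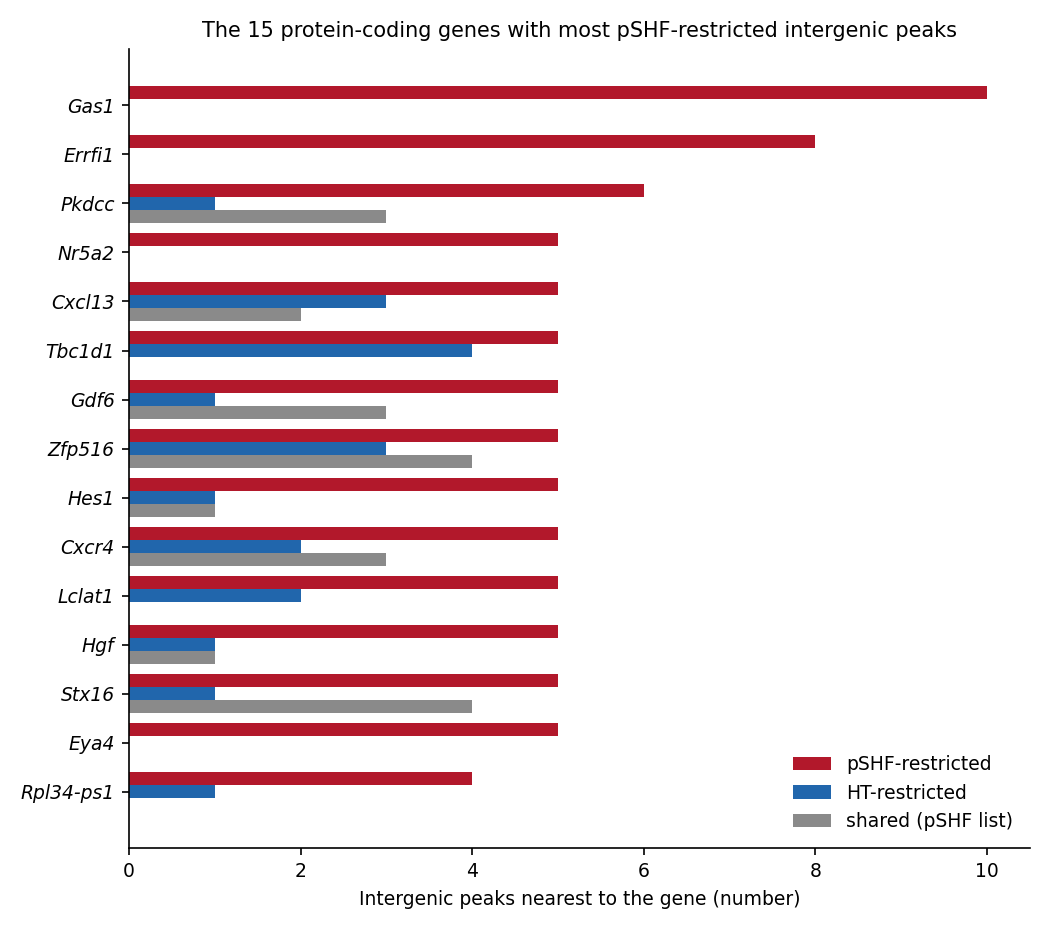
Number of intergenic peaks nearest to each of 15 protein-coding genes ranked by pSHF-restricted intergenic peaks, ties by summed fold enrichment (x axis), as pSHF-restricted, HT-restricted and shared peaks. Gas1 (10) and Errfi1 (8) lead with none of the other kinds, as do Nr5a2 and Eya4 with 5 each.

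The longest runs after those at Gas1 and Pkdcc held 5 members each. One of 22.4 kb lay near Lclat1 and one of 23.5 kb between Hhat and Sertad4, Hhat being the acyltransferase that adds palmitate to Hedgehog ligands, with 0 and 1 HT-restricted peaks inside. Others of 33.9 kb at Cxcl13, 43.3 kb between Cdon and Rpusd4, 65.5 kb near 1700001O22Rik and Cstad and 66.0 kb at Cxcr4 had 1 to 3 HT-restricted peaks inside them. The run near 1700001O22Rik and Cstad also held 7 shared peaks, more than its members, and that at Cxcr4 held 1. Next in the order came runs of 4 members in 1.501 kb at Cadm1, which encodes a cell adhesion molecule, and in 19.1 kb near Tnfsf18 and Tnfsf4.

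For each list of genes the members were set beside the HT-restricted intergenic peaks at the same genes. Over all genes the members made up 40.1% (39.1 to 41.2) of 8412 such restricted peaks, the background for every share below. The lists were compiled with earlier results of these data known, and neighbouring genes of a list share their surroundings.

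Genes of the Hedgehog pathway, which carries a secreted ligand's signal through Ptch1, Smo and the Gli factors, had 30 members, 11 HT-restricted and 4 shared intergenic peaks, a member share of 73.2% (57.1 to 85.8). Of 17 genes, 7 had more members than HT-restricted peaks, 2 had fewer, and 8 had equal numbers, all at 0. Among the receptors and co-receptors, Gas1 had 10 members and 0 HT-restricted peaks, Cdon 4 and 2, the ligand-sequestering Hhip 3 and 0, Ptch1 0 and 1, and Boc 0 and 0. Among the transcription factors, Gli2 had 4 and 2, Gli3 3 and 2, and Gli1, itself a direct target of the pathway, 0 and 0. Among genes for the ligand, Shh had 1 and 0, Hhat 4 and 2, and Scube2, which helps to release the ligand, 1 and 2. Without Gas1 the list had 20 members and 11 HT-restricted peaks, or 64.5% (45.4 to 80.8).

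The single values at these genes were modest. The Gli2 members had fold enrichments of 4.54 and 3.77 downstream of the gene and 4.34 and 5.63 upstream, where the strongest, at chr1:119097992-119098216, was 43.7 kb from the gene and 3.93 kb from an HT peak. The 4 Cdon members lay 16.2 to 61.6 kb upstream with folds of 3.20 to 4.92, those of Hhat 21.0 to 35.7 kb upstream with 3.36 to 4.75, and those of Gli3 had 4.31, 4.36 and 3.17, the last 97 bp from an HT peak. The Hhip members had 3.77, 3.77 and 4.22, and the nearest HT peak to any of them was 61.4 kb away. At a −log10 q-value of 5 or more the list had 4 members and 3 HT-restricted peaks, while over all genes 19.6% of such restricted peaks were members.

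Retinoic acid genes, which make, break down or sense this vitamin A derivative that patterns the venous pole, had 15 members, 6 HT-restricted and 4 shared peaks, a member share of 71.4% (47.8 to 88.7). Of 17 genes, 8 had more members and 1 had fewer. At a −log10 q-value of 5 or more the list had 3 members and 2 HT-restricted peaks, beside a member share of 19.6% over all genes. The receptor gene Rxra had 3 members (highest fold 5.70) and 2 HT-restricted peaks, the synthesis genes Aldh1a3 and Rdh10 2 and 1 and 2 and 0, and Aldh1a2, the main synthesis enzyme of the early mesoderm, 1 and 1. Rarb had 2 and 0, and under −log10 q of 5 in both lists 1 more HT-restricted peak. The degradation gene Cyp26b1 had 1 and 0.

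Wnt pathway genes had 27 members, 16 HT-restricted and 4 shared peaks, a member share of 62.8% (46.7 to 77.0), with more members at 9 of 25 genes and fewer at 4. At a −log10 q-value of 5 or more they had 3 and 7, beside a member share of 19.6% over all genes. The nuclear effectors Tcf7l2 and Lef1 had 4 members and 2 HT-restricted peaks, and 4 and 3. Tcf7l2 turned to 2 more HT-restricted peaks under both settings with a −log10 q-value of at least 5, and to 1 more within 50 kb of the gene. The ligand gene Wnt11 had 3 and 1, the receptor gene Fzd1 3 and 0, and Rspo3, which encodes a secreted enhancer of Wnt signals, 2 and 0, with a member of fold 8.60 at 18.9 kb.

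Genes of the gut and lung mesenchyme, the tissue next to the pSHF, had 18 members, 10 HT-restricted and 17 shared peaks, a member share of 64.3% (44.1 to 81.4). At a −log10 q-value of 5 or more they had 5 and 6, beside a member share of 19.6% over all genes. The homeobox genes Six2 and Barx1 had 3 members and 0 HT-restricted peaks, and 3 and 1. The T-box gene Tbx4 had 3 and 1, its 3 members lying 1.09 to 2.09 kb past the gene with folds of 5.26, 4.37 and 4.68, so that requiring over 5 kb from any gene end left it with 1 more HT-restricted peak. Hlx, a homeobox gene of gut mesenchyme, had 0 and 4. Anterior Hox genes, which mark the pSHF along the body axis, had 7 members and 3 HT-restricted peaks at 3 of 15 genes, 70.0% (34.8 to 93.3). Of these 7, 5 had −log10 q-values of 5 or more, including both at Hoxb1 (fold enrichments of 4.97 and 5.78, −log10 q-values of 6.22 and 6.89). At that threshold the list had 1 HT-restricted peak, and over all genes 15.2% of members reached it. Hoxb1 had as many HT-restricted peaks as members, 2 and 2, with 1 of the HT-restricted ones at that threshold, and 2 shared intergenic peaks.

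Genes used as markers of second heart field progenitors had 19 members, 15 HT-restricted and 12 shared peaks, 55.9% (37.9 to 72.8), and 14 of 20 had a member. At a −log10 q-value of 5 or more the list had 7 members and 4 HT-restricted peaks, beside a member share of 19.6% over all genes. Foxf1, a forkhead gene activated by Hedgehog in splanchnic mesoderm, had 3 members and 1 HT-restricted peak, with members of fold 4.11 and 5.21 at 40.3 and 40.5 kb and of 3.49 at 81.5 kb. Isl1 and Osr1, which mark the field, had 1 and 2, and 1 and 0, and the Isl1 member (4.72) lay 152 bp from an HT peak. Pdgfra had 1 and 1, its member reaching 5.87. These counts are of open sites and say nothing of the genes' expression.

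**Figure D4:**
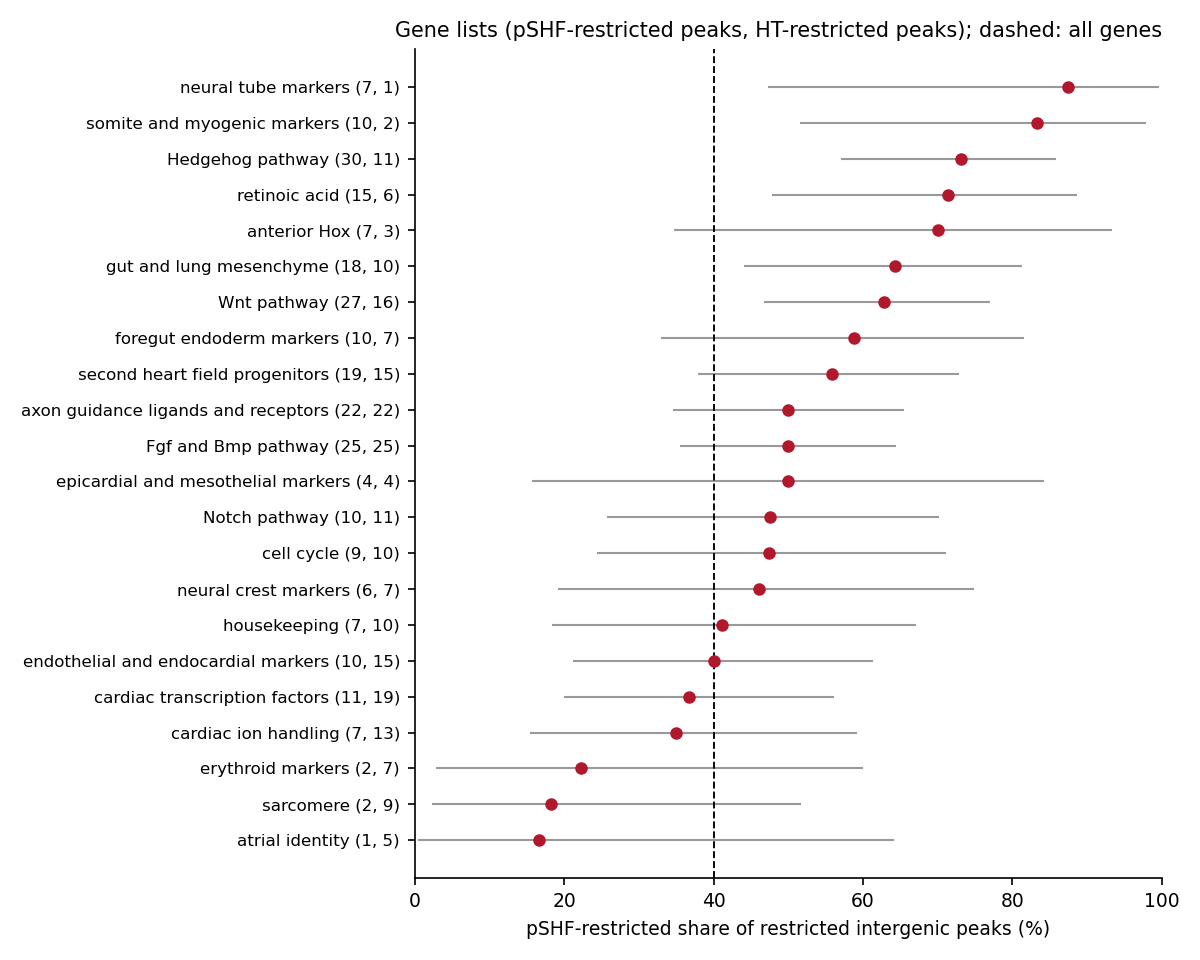
Share of restricted intergenic peaks that were pSHF-restricted (x axis, %) for each of 22 gene lists, with Clopper-Pearson 95% intervals that cover counting error over peaks only. Numbers in parentheses are pSHF-restricted and HT-restricted peaks, and the dashed line is the 40.1% over all genes. Shares run from 87.5% (neural tube markers, 8 peaks) to 16.7% (atrial identity, 6 peaks).

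Genes of the differentiated heart, like all genes together, had fewer members than HT-restricted peaks. Sarcomere genes had 2 members, at Des and Tpm1, and 9 HT-restricted peaks (18.2%, 2.28 to 51.8). Atrial identity genes had 1 and 5 (16.7%, 0.421 to 64.1), ion-handling genes 7 and 13 (35.0%, 15.4 to 59.2) and cardiac transcription factors 11 and 19 (36.7%, 19.9 to 56.1). All 4 intervals include the 40.1% over all genes. Tbx5, the T-box gene of the atria and of the pSHF, had 2 members of 5.72 and 5.19 and 3 HT-restricted peaks, the second member lying 19 bp from an HT peak. Hand2 had 0 and 2, and Gata4 0 and 1.

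The intervals of the Fgf and Bmp, axon guidance and Notch lists also included the 40.1%. Fgf and Bmp genes had 25 and 25 with 30 shared peaks (50%, 35.5 to 64.5), axon guidance genes 22 and 22 (50%, 34.6 to 65.4) and Notch genes 10 and 11 (47.6%, 25.7 to 70.2). At a −log10 q-value of 5 or more the 3 lists had 0 and 9, 3 and 10, and 2 and 6, beside a member share of 19.6% over all genes. In these lists Id3, a target of Bmp signals, had 4 members and 1 HT-restricted peak, Bmp4 3 and 0, Nrp2 4 and 2, and Bmp5 3 and 1. The other way, the inhibitory Smad gene Smad6 had 0 and 5, the phosphatase gene Dusp6 0 and 4, Bmp7 0 and 3, Nrp1 0 and 3, and Robo2 2 and 4. Nrp2 turned to 1 more HT-restricted peak at a −log10 q-value of at least 5 against the whole HT list, and Bmp5 under both such settings. Cell cycle genes had 9 and 10 (47.4%) and housekeeping genes 7 and 10 (41.2%).

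Markers of cell types that a dissected pSHF piece can also hold had members too, and their part in the results was not tested. Somite and myogenic markers had 10 members and 2 HT-restricted peaks (83.3%, 51.6 to 97.9) at 5 of 15 genes, among them Meox1 (3, the highest at 7.29), Uncx (3) and Pax1 (2), and markers with 0 members included Pax3, Pax7, Meox2, Tcf15, Myod1, Myog, Nkx3-2, Foxc2 and Tbx6. Neural tube markers had 7 and 1 (87.5%, 47.3 to 99.7) at 5 of 15, among them Nkx6-1 with 2 and Sox1, Sox2 and Lhx2 with 1, and markers with 0 included Pax6 and Olig2. Under −log10 q of 5 in both lists their member share lay below that over all genes, and Nkx6-1 had 1 more HT-restricted peak. Foregut endoderm markers had 10 and 7 (58.8%, 32.9 to 81.6) at 7 of 15, with 3 members at Foxa2 (the highest at 8.20, 45.0 kb upstream), 2 at Foxa1, 1 at Shh, and markers with 0 included Foxa3, Sox17, Nkx2-1, Epcam, Krt8, Krt18 and Prox1.

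Neural crest markers had 6 and 7 (46.2%), endothelial and endocardial markers 10 and 15 (40%), epicardial and mesothelial markers 4 and 4 (50%) and erythroid markers 2 and 7 (22.2%). Meox1 turned to 1 more HT-restricted peak when peaks had to lie over 5 kb from any gene end.

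Among transcription factor families, forkhead genes had 30 members and 23 HT-restricted peaks (56.6%, 42.3 to 70.2), the most members of any family. Foxo1 had 4 and 2, and Foxa2, Foxb1, Foxf1 and Foxl1 had 3 members each beside 3, 0, 1 and 1 HT-restricted peaks, Foxl1 turning to 1 more HT-restricted peak under −log10 q of 5 in both lists. Nuclear receptors had 18 and 8 (69.2%, 48.2 to 85.7), of which Nr5a2 held 5 members. Pax genes had 8 and 2 (80.0%, 44.4 to 97.5). The Klf and Sp family had 7 members and 23 HT-restricted peaks (23.3%, 9.93 to 42.3), and Gata genes 2 and 4. Basic helix-loop-helix genes had 27 and 21 (56.2%, 41.2 to 70.5), but lay below the share over all genes when −log10 q-values of at least 5 were required.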

How the data were processed

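ATAC-seq peaks were measured in pSHF and HT of WT CD1 embryos, 3 samples per tissue, grouped by their labelled tissue. Each deposited narrowPeak list gives, per line, the authors' score, fold enrichment as a ratio, and −log10 p-values and q-values. MACS2 2.1.1, Bowtie2 2.3.2, Picard and SAMtools 1.5 with build mm10 are named per the submitters' processing notes. Not given in the sources used here: what each tool did, and whether samples were pooled before calling. The read depth per sample is unknown. Summit pileups were solved from the authors' −log10 p and fold enrichment, with background pileups of 0.857 in pSHF and 0.824 in HT, and a whole pileup gave the listed −log10 p to 0.01 for 100% of summits.

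Lines with equal chromosome, start and end (58887 in pSHF, 60223 in HT) were merged, keeping the summit of highest fold. Genes came from a RefSeq table of GRCm38.p6, and strand and promoter windows from a RefSeq table with windows for 17273 of 21627 protein-coding genes. Peaks were assigned to the protein-coding gene whose body was closest. Intervals are exact Clopper-Pearson, computed with Python 3.11.15, pandas 2.3.3, numpy 2.4.6 and scipy 1.17.1 and drawn with matplotlib 3.10.9. The overlap and pileup steps were tested on simulated data, in which the lowest pileups found in the peaks were not included. The members, 22 gene lists and 18 families were chosen with earlier results of these data known. Named genes are the 15 with most members (ties by summed fold), the 3 leading genes of each list or family, those nearest the 10 strongest members and the 10 longest runs, and a chosen set of Hedgehog, second heart field and cardiac genes; Scube2, Hlx and others named within a list, and the sequence motifs shown, were chosen after their values were seen. Alternatives changed the overlap, the q-value threshold, the gene distances, the genes that bound the intergenic space, and the merging of summits. No genome sequence was used here, so the sequences of the peaks themselves were not analysed. Some genes of the lists are not reported here.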

Additional observations from a re-analysis of the deposited data

How the results depend on the processing

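The number of members ran from 2568 to 4679 and the number of genes with a member from 1902 to 3193 under 6 of the 8 alternatives, and the median fold enrichment stayed at 4.31. Requiring a −log10 q-value of at least 5 in pSHF against the whole HT list left 513 members at 484 genes with a median fold of 5.91, a member share of 21.3% among pSHF-restricted peaks, and 19.6% of restricted intergenic peaks as members. The same threshold in both lists gave 864 members at 792 genes, 5.92, 20.6% and 21.2%.

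The share of pSHF-restricted peaks that were members was 24.4% when an HT peak within 500 bp counted as overlap, 19.5% with 50% reciprocal overlap, 17.0% over 5 kb from any gene end, 17.0% within 50 kb of a gene and 29.3% when only protein-coding genes bounded the space. The member share of restricted intergenic peaks was 42.9% with reciprocal overlap, 41.9% over 5 kb from gene ends and 38.8% within 50 kb. It was 39.3% with the 500 bp overlap, 39.9% with protein-coding bounds and 40.4% with each summit taken on its own. Each alternative changed the rule itself, and why a share moved was not tested.

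Of 139 named genes, 62 had a difference of 2 or more between members and HT-restricted peaks, and 11 of these turned. Over all named genes and alternatives, 349 other differences moved by more than 1.5 times (any move away from 0, and any sign change of a difference under 2, included) and 749 moved by less or not at all. With −log10 q of at least 5 against the whole HT list, members minus HT-restricted peaks was -1 at Bmp5 and Nrp2 and -2 at Tcf7l2. With it in both lists genes with a difference of -1 included Bmp5, Cstad, Cxcl13, Foxl1, Nkx6-1 and Rarb, and it was -2 at Tcf7l2. It was -1 at Meox1 and Tbx4 over 5 kb from gene ends and -1 at Tcf7l2 within 50 kb. The share at basic helix-loop-helix genes minus that over all genes was -9.56 and -3.05 percentage points under these q-value settings, and at neural tube markers -1.23 in both lists; the cause was not tested. Of 40 lists and families, 10 had an interval that left out the share over all genes. The other 8 of these 10 did not turn. Neighbouring peaks were counted singly, so these intervals are a description and not a test.

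No paired analysis was possible because each tissue has 1 peak list and no result comes from a test, and leaving out a replicate could not be done for the same reason. At a median of 8 fragments per summit, a site of like strength in HT can miss the threshold, so absence from the HT list does not measure accessibility in HT.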
